A study of Mus musculus with 29 samples.

Results

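The expression of 7 lysine demethylases that act on histone H3 was examined in the developing cortex of mice that lack BAF155 and BAF170, the scaffold subunits of the BAF chromatin remodelling complexes encoded by Smarcc1 and Smarcc2. The 7 genes were taken as a list, without a threshold on any measured value: Kdm6a and Kdm6b, Kdm1a and Kdm1b, and Kdm5a, Kdm5b and Kdm5c. All 7 were listed in the count tables of both RNA-seq experiments and passed the filter on low counts in both, among 36831 genes that the tables share. Pallium or cortex was collected at E17.5 on a C57BL/6J background, and the double knockout (dcKO) was made with hGFAP-Cre, a human GFAP promoter transgene that deletes the floxed alleles in radial glia and their progeny and leaves other cells of the tissue unrecombined. The first experiment held 4 untreated libraries with the letter C and 3 with the letter M, which the study uses for control and dcKO, whereas the deposited genotype text reads dcKO for both. The second held 4 wild-type (WT) libraries from pregnancies given vehicle, 4 dcKO libraries given vehicle, and 4 dcKO libraries given ICG-001, an inhibitor of Wnt signalling (WNTi), by injection of the pregnant mouse. The study also profiled H3K4me2 by ChIP-seq, which is not among the samples examined here. Its H3K27me3 ChIP-seq held 4 libraries with the letter C and 4 with the letter K. These letters are read as control and dcKO, the groups that the study compared. For these libraries, too, the deposited genotype text reads dcKO for both letters.

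Methylation of histone H3 at lysine 27 by Polycomb repressive complex 2 (PRC2) keeps developmental genes silent, and methylation at lysine 4 marks enhancers and promoters. The demethylases remove these marks. KDM6A (UTX) and KDM6B (JMJD3) take methyl groups from H3K27, KDM1A (LSD1) and KDM1B (LSD2) are flavin-dependent enzymes that act on mono- and dimethylated H3K4, and KDM5A, KDM5B and KDM5C act on di- and trimethylated H3K4. KDM6A works in the same complex as the H3K4 methyltransferases KMT2C and KMT2D, and KDM1A in the CoREST complex with histone deacetylases. Kdm6a and Kdm5c lie on the X chromosome, are known to escape X inactivation in part, and have Y-linked paralogues, Uty and Kdm5d.

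Some libraries stood apart before any demethylase was considered. Total counts ranged from 11946658 to 28391046 per library. Levels are given in CPM, the counts of a gene scaled to a common library size. Smarcc1 lay between 245 and 299 CPM in the 8 control and WT libraries. It lay at 128 and 135 CPM in untreated M3 and M4 and between 133 and 138 CPM in dcKO vehicle 1, 3 and 4, but at 245 CPM in untreated M2, 242 CPM in dcKO vehicle 2, and 214, 252, 140 and 173 CPM in dcKO WNTi 1 to 4. Untreated M2, dcKO vehicle 2 and dcKO WNTi 1 and 2, with 214 to 252 CPM, are therefore called by their labels only (the high-Smarcc1 dcKO libraries). Each comparison is also given without such libraries: M2 in M against C, and dcKO vehicle 2 in dcKO vehicle against WT vehicle. Both WNTi comparisons were fitted without dcKO vehicle 2 and dcKO WNTi 1 and 2. Of these, dcKO vehicle 2 lies just below the control range and dcKO WNTi 1 further below it. With all libraries, the log2 fold change of Smarcc1 was -0.61 (SE 0.22) in M against C and -0.71 (SE 0.21) in dcKO vehicle against WT vehicle, short of the test (edgeR's quasi-likelihood test, Benjamini-Hochberg adjusted p = 0.251 and 0.289). Without M2 and dcKO vehicle 2 it was -0.97 in both comparisons, which is a description only, since these libraries were left out for their Smarcc1. The exons of Smarcc1 that were deleted are not separated in counts per gene.

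Same-numbered libraries of the 2 experiments also resembled each other. Across 11121 autosomal genes, the deviations of untreated M2, M3 and M4 from their group mean correlated with those of dcKO vehicle 2, 3 and 4 at r = 0.88, 0.80 and 0.78, and between -0.79 and 0.52 where the numbers differed. For untreated C and WT vehicle, r was 0.08, 0.42, 0.26 and 0.54 for numbers 1 to 4, against -0.49 to 0.38 where the numbers differed. These are correlations across genes, which are not independent replicates. Some sums of marker genes, named after they were seen, were close in same-numbered C and WT vehicle libraries. For choroid plexus, an epithelium outside the cortex, they were 8.53, 19.63, 7.58 and 135.87 CPM in untreated C1 to C4. In WT vehicle 1 to 4 they were 8.18, 16.99, 7.11 and 133.03 CPM. For meningeal fibroblasts they were 15.5, 70.15, 17.04 and 67.1 CPM in C1 to C4. In WT vehicle 1 to 4 they were 15.34, 75.84, 20.1 and 73.53 CPM. The labels do not say that the embryos were shared, and this was not tested. The untreated and the vehicle experiment are hence not read as independent of each other. Xist, the non-coding RNA expressed from the inactive X chromosome, and the Y-linked gene Ddx3y divided the libraries in each group. Same-numbered libraries of C and WT vehicle, and of M and dcKO vehicle, were alike in whether Xist was high or low. dcKO vehicle 1 had both, 673 CPM of Xist and 19 CPM of Ddx3y. The markers of cortical excitatory neurons were high in each library, with a summed level of 5078 to 6810 CPM over 9 genes. Nothing in the labels says whether the libraries of a group came from separate embryos, so that the p-values measure the spread between these libraries.

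Per length, the H3K4 demethylase Kdm1a was the most abundant of the 7 in each of the 5 groups. In CPM per kilobase of annotated exon, its level was 61.6 ± 4.4 (SD, n = 4) in untreated C, 61.9 ± 1.6 (n = 3) in untreated M, 57.1 ± 3.7 (n = 4) in WT vehicle, 59.1 ± 1.6 (n = 4) in dcKO vehicle and 61.8 ± 5.5 (n = 4) in dcKO WNTi. Kdm6b came next, at 25.2 ± 2.1 in untreated C and 33.7 ± 6.1 in WT vehicle, followed by Kdm5c at 21.2 ± 4.2 and 21.4 ± 3.1 and Kdm5b at 20.3 ± 1.0 and 19.8 ± 1.6. The ranges of Kdm5c and Kdm5b overlapped in all 5 groups, and that of Kdm6b overlapped with Kdm5c in untreated C only. Kdm1b stood below them, at 11.97 ± 1.02 in untreated C and 10.5 ± 1.1 in WT vehicle. Kdm6a and Kdm5a were lowest, with 8.11 ± 1.84 and 8.09 ± 0.39 in untreated C, and their ranges overlapped in each group. The low level per length of Kdm5a came with 14158 bases of exon, so that even this gene was covered by at least 913 reads in each library, and Kdm6a by at least 517. In CPM, without division by exon length, the ranges of Kdm5b (16555 bases of annotated exon) and Kdm1a (5179 bases) overlapped in each group.

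**Figure D1:**
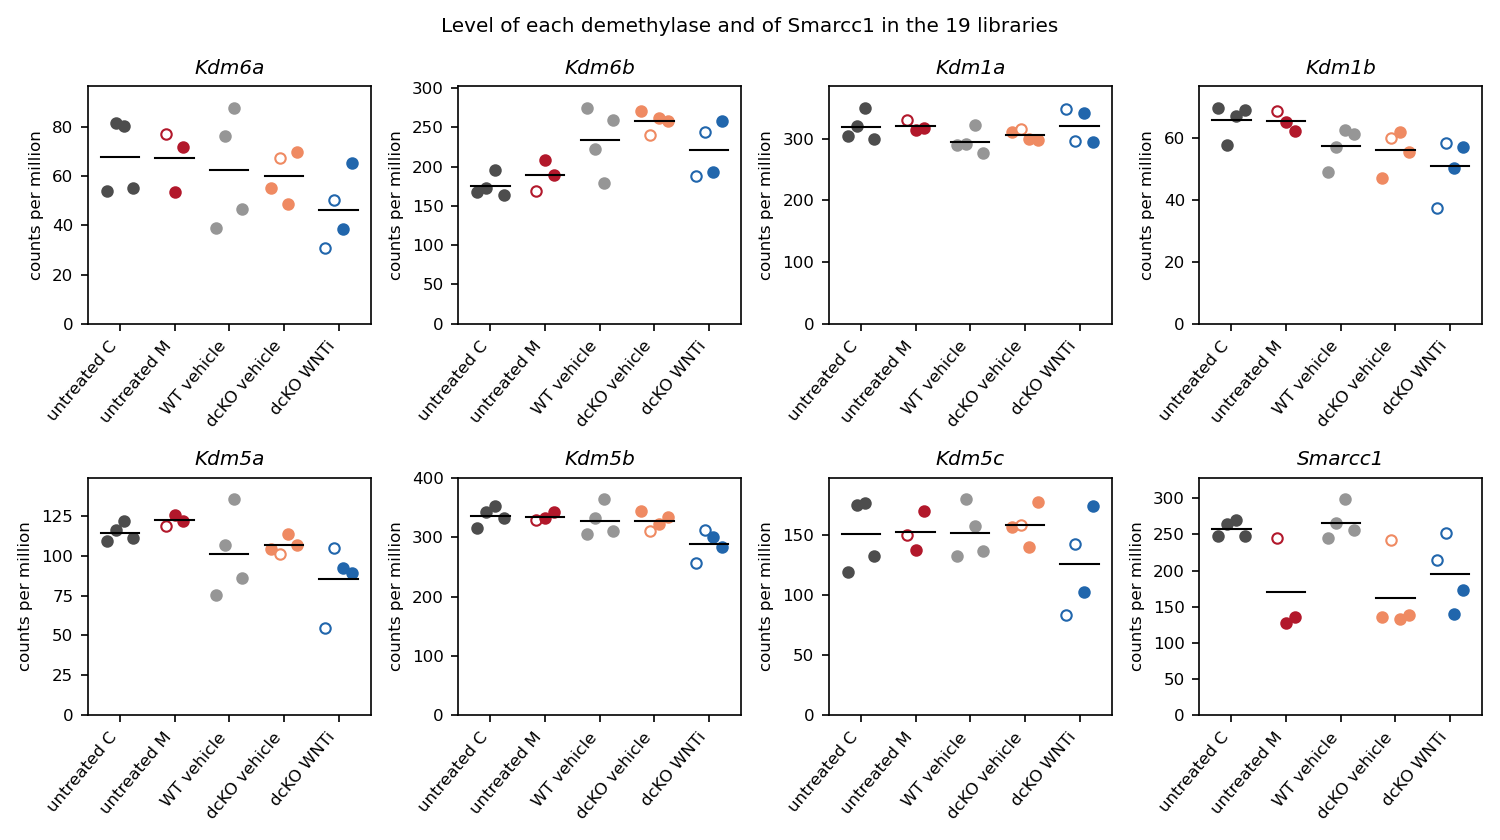
Level in CPM (vertical axis, from 0) of the 7 demethylases and of Smarcc1 in 19 RNA-seq libraries, by group, with the replicates in the order of their numbers. Bars are group means, and open points are the 4 libraries labelled dcKO whose Smarcc1 lay between 214 and 252 CPM. Within each experiment the groups of each demethylase overlap, and the lowest Kdm5a, Kdm5c and Kdm6a points belong to dcKO WNTi 1.

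None of the 7 demethylases passed an adjusted p of 0.05 in any comparison. In untreated M against C, 0 of 7 were called, beside 1 of 15770 genes (0.00634%), and 0 of 7 had an unadjusted p under 0.05, beside 16% of genes. In dcKO vehicle against WT vehicle, 0 of 7 were called beside 0.00611% of 16372 genes, and 0 of 7 at the unadjusted limit beside 9.46%. In dcKO WNTi against dcKO vehicle, 0 of 7 were called beside 0.055%, and 0 of 7 at the unadjusted limit beside 15.8%. In dcKO WNTi against WT vehicle the backgrounds were 0.0977% and 19.8%, again with 0 of 7 at either limit. DESeq2 called 0 of 7 in each, beside 559, 118, 334 and 753 genes over the whole table in the same order. Without the high-Smarcc1 dcKO libraries, 12.4% of genes were called in M against C, 3.4% in dcKO vehicle against WT vehicle, 1.02% in dcKO WNTi against dcKO vehicle and 7.38% in dcKO WNTi against WT vehicle, and still 0 of 7 demethylases. In the WNTi comparisons, leaving out dcKO WNTi 2 alone gave 420 and 1453 genes and leaving out dcKO WNTi 1 alone gave 3 and 2. At the unadjusted limit these fits held 1 of 7 in M against C, which was Kdm6b (edgeR, adjusted p = 0.163), beside 26.6% of genes, and 0 of 7 in the other comparisons, beside 14.5%, 17.9% and 24.6%.

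The sizes that these data leave possible are set by the intervals. In M against C the log2 fold changes of the 7 genes ran from -0.01 to 0.11, with a median of 0.01 beside 0.00 over all genes tested. In dcKO vehicle against WT vehicle they ran from -0.05 to 0.14, with a median of 0.05 beside 0.00. In dcKO WNTi against dcKO vehicle, 6 of 7 were negative, from -0.38 to 0.07, with a median of -0.22 beside 0.01, and in dcKO WNTi against WT vehicle 6 of 7 were negative, with a median of -0.19 beside 0.01. The last pair of comparisons share the WNTi libraries, and the vehicle groups each serve in 2 comparisons. The genotype difference in the vehicle experiment minus that in the untreated one was between -0.03 and 0.05 for the 7 genes (0 of 7 called, beside 0% of 15999 genes, and 0 of 7 at the unadjusted limit beside 0.544%). Its intervals reached from -0.78 to 0.71 for Kdm6a and from -0.16 to 0.26 for Kdm1a. That fit takes the libraries of both experiments as independent. With same-numbered libraries as a source block, over 14 libraries, the Kdm6a difference was 0.05 (95% CI -0.28 to 0.38) and the Kdm1a difference 0.04 (-0.12 to 0.21), with 0 genes called.

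**Figure D2:**
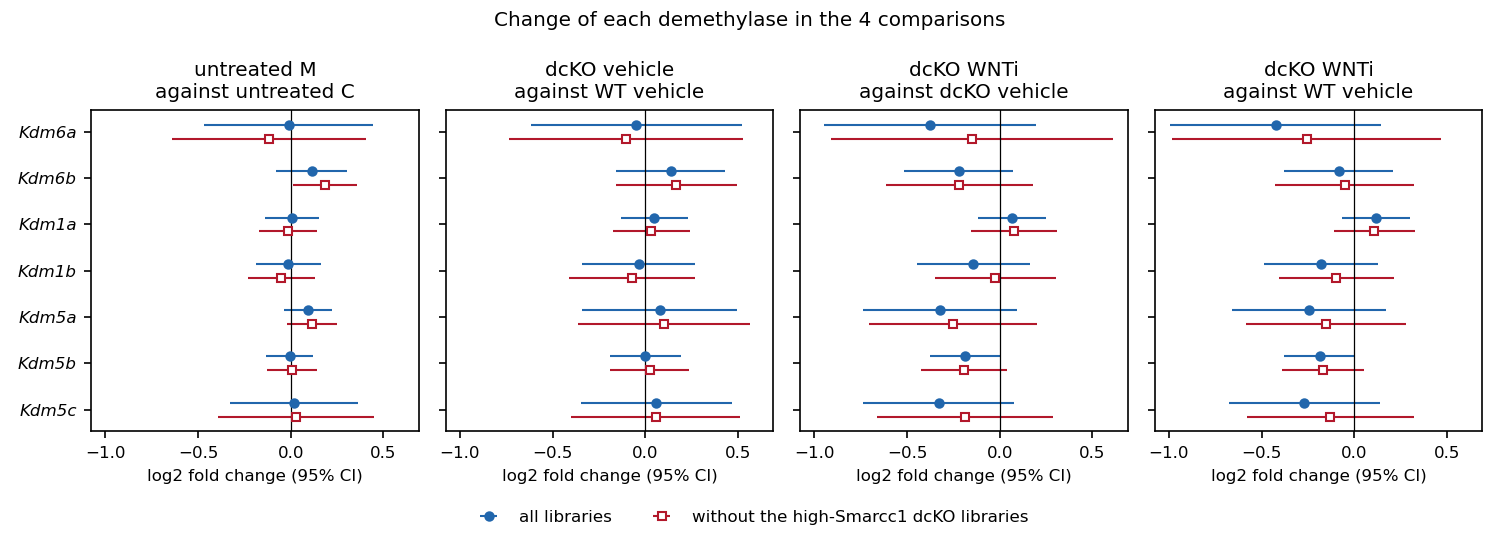
Log2 fold change (horizontal axis) with its 95% confidence interval for the 7 demethylases in 4 comparisons, fitted with all libraries (filled circles) or without the high-Smarcc1 dcKO libraries (open squares). All intervals with all libraries include 0, and in both comparisons of dcKO WNTi the values lie below 0 for 6 of 7 genes with the exception of Kdm1a.

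Of the H3K27 demethylases, Kdm6a had 54.2, 81.9, 80.7 and 55.1 CPM in untreated C1 to C4 and 77.4, 53.6 and 72.1 CPM in M2 to M4. It had 38.9, 76.6, 88.0 and 46.6 CPM in WT vehicle, 55.3, 67.3, 48.8 and 69.9 CPM in dcKO vehicle, and 30.9, 50.3, 38.7 and 65.6 CPM in dcKO WNTi. High and low libraries occurred in each group, and the groups overlapped. The log2 fold change was -0.01 (95% CI -0.47 to 0.44) in M against C, -0.05 (-0.62 to 0.52) in dcKO vehicle against WT vehicle, -0.38 (-0.95 to 0.19) in dcKO WNTi against dcKO vehicle and -0.42 (-0.995 to 0.147) against WT vehicle (edgeR, adjusted p = 0.986, 0.993, 0.505 and 0.387). These were the widest intervals among the 7.

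Kdm6b, the inducible H3K27 demethylase, had 168, 173, 196 and 164 CPM in untreated C and 169, 209 and 190 CPM in M2 to M4. In the treated experiment it had 275, 223, 179 and 259 CPM in WT vehicle, 270, 241, 261 and 258 CPM in dcKO vehicle, and 188, 244, 194 and 258 CPM in dcKO WNTi. The dcKO vehicle libraries were the most alike of the treated groups. WT libraries lay above, within and below their range, and WNTi libraries within or below it. The log2 fold change was 0.11 (95% CI -0.08 to 0.31) in M against C and 0.14 (-0.16 to 0.43) in dcKO vehicle against WT vehicle. Without M2 the former was 0.18 (0.01 to 0.36), with M3 and M4 on either side of C3. In dcKO WNTi, Kdm6b differed from dcKO vehicle by -0.22 (-0.52 to 0.07) and from WT vehicle by -0.08 (-0.38 to 0.21).

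Of the LSD family, Kdm1a stayed within a narrow range of levels. Kdm1a, the demethylase subunit of CoREST, ranged from 300 to 351 CPM in untreated C, 314 to 330 CPM in untreated M, 277 to 322 CPM in WT vehicle, 298 to 315 CPM in dcKO vehicle and 295 to 348 CPM in dcKO WNTi. It was the gene with the narrowest interval in dcKO vehicle against WT vehicle (0.05, 95% CI -0.13 to 0.23), and the only one of the 7 with positive values in both WNTi comparisons (0.07, -0.12 to 0.25, and 0.12, -0.07 to 0.30). The 2 highest WNTi values, 348 and 342 CPM, were those of libraries 1 and 3, in which Kdm6a, Kdm6b and Kdm5c were lowest. Kdm1b, its relative without a CoREST-binding domain, had 57.6 to 69.7 CPM in untreated C, 62.0 to 68.7 CPM in M, 49.1 to 62.6 CPM in WT vehicle, 46.9 to 61.9 CPM in dcKO vehicle and 37.1 to 58.3 CPM in dcKO WNTi. Its log2 fold changes were -0.01 (95% CI -0.19 to 0.16), -0.04 (-0.34 to 0.27), -0.14 (-0.45 to 0.16) and -0.18 (-0.48 to 0.13) in the order of comparisons above.

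For the KDM5 family, too, differences between the untreated or vehicle groups were within the spread between libraries. Kdm5a had 109 to 122 CPM in untreated C and 119 to 126 CPM in untreated M, a log2 fold change of 0.09 (95% CI -0.03 to 0.22). In the treated experiment it had 75.5, 107, 136 and 86.3 CPM in WT vehicle, 104, 101, 114 and 107 CPM in dcKO vehicle and 54.6, 105, 92.4 and 89.2 CPM in dcKO WNTi. The WT libraries thus spanned most of the range of the dcKO ones, with WNTi 1 below them all. Its log2 fold change was 0.08 (-0.34 to 0.49) in dcKO vehicle and -0.24 (-0.66 to 0.17) in dcKO WNTi against WT vehicle, and -0.32 (-0.74 to 0.10) between the dcKO groups.

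With all libraries, Kdm5b was the member closest to the unadjusted limit. It had 315 to 353 CPM in untreated C, 329 to 343 CPM in M, 306, 332, 364 and 310 CPM in WT vehicle and 345, 310, 323 and 334 CPM in dcKO vehicle, with a log2 fold change of -0.01 (95% CI -0.13 to 0.12) and -0.00 (-0.19 to 0.19). In dcKO WNTi it had 256, 313, 301 and 283 CPM, of which 3 lay below each vehicle library and WNTi 2 lay within them. The log2 fold change was -0.19 (SE 0.09) against dcKO vehicle and -0.19 (SE 0.09) against WT vehicle (edgeR, unadjusted p = 0.056 and 0.0551, adjusted p = 0.328 and 0.263). When dcKO WNTi 1 and 2 and dcKO vehicle 2 were left out, the values for Kdm5b were -0.19 (95% CI -0.42 to 0.04) and -0.17 (-0.39 to 0.05).

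Kdm5c, whose loss in humans causes X-linked intellectual disability, had 119, 175, 177 and 133 CPM in untreated C and 151, 138 and 171 CPM in M2 to M4. It had 133, 180, 158 and 137 CPM in WT vehicle, 157, 159, 140 and 178 CPM in dcKO vehicle and 84.0, 143, 103 and 175 CPM in dcKO WNTi. As for Kdm6a, each group held high and low libraries. The log2 fold change was 0.02 (95% CI -0.33 to 0.36) in M against C, 0.06 (-0.35 to 0.47) in dcKO vehicle against WT vehicle, -0.33 (-0.74 to 0.08) between the dcKO groups and -0.27 (-0.68 to 0.14) in dcKO WNTi against WT vehicle.

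The high and low libraries of Kdm6a and Kdm5c followed Xist. In untreated C1 to C4, Xist was 0.882, 2076, 2342 and 10.7 CPM, and in M2 to M4 2271, 4.09 and 2335 CPM. In WT vehicle it was 0.511, 1898, 2665 and 3.10 CPM, in dcKO vehicle 673, 1797, 3.57 and 1982 CPM, and in dcKO WNTi 2.03, 2.296, 2.87 and 1972 CPM. Kdm6a was higher in each of the 9 libraries with 1797 CPM of Xist or more than in any library with 10.7 CPM or less, and 3 of 4 WNTi libraries were of the latter kind. Kdm5c had at least 151 CPM in the former and at most 143 CPM in the latter. The Y-linked paralogues went the other way: Kdm5d was at 41.6 to 76.0 CPM in the other 10 libraries, dcKO vehicle 1 included, and under 1 CPM in those 9, and Uty was at 9.99 to 27.9 CPM and under 1 CPM.

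Within the groups, the slope of Kdm6a on Xist was 0.06 log2 units per log2 unit of Xist (SE 0.01) in the 7 untreated libraries and 0.08 (SE 0.01) in the 12 treated ones. In both fits only Xist itself had a smaller p, but the adjusted p was 0.261 and 0.316 (edgeR). Over all 19 libraries the slope of Kdm6a was 0.07 (95% CI 0.05 to 0.09, edgeR, adjusted p = 0.00261), the second smallest p of 16155 genes, of which 12 (0.0743%) were called. Of these 12, 4 were X-linked and 4 Y-linked. The Kdm6a call needs the 19 libraries to be separate samples: with same-numbered untreated and vehicle libraries summed to 12, the slope was 0.07 (SE 0.01), the p-value was 0.000123 and the adjusted p 0.865, with 0 genes called. The Y-linked Ddx3y, which divides the libraries, was not called there either (edgeR, adjusted p = 0.865). Nor was it in the untreated or treated libraries alone (edgeR, adjusted p = 0.529 and 0.606). A missing call in these fits hence does not show that a gene was unrelated to Xist. For Kdm5c the slope was 0.04 (95% CI 0.02 to 0.06, edgeR, adjusted p = 0.141) over 19 libraries, 0.04 (adjusted p = 0.0409) over 15 without the high-Smarcc1 dcKO libraries, and 0.05 (adjusted p = 1) over the 12 sums. The other 5 members had slopes between -0.01 and 0.02 over 19 libraries, with adjusted p from 0.618 to 0.933. The relation to Xist was examined after the levels of Xist had been seen.

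**Figure D3:**
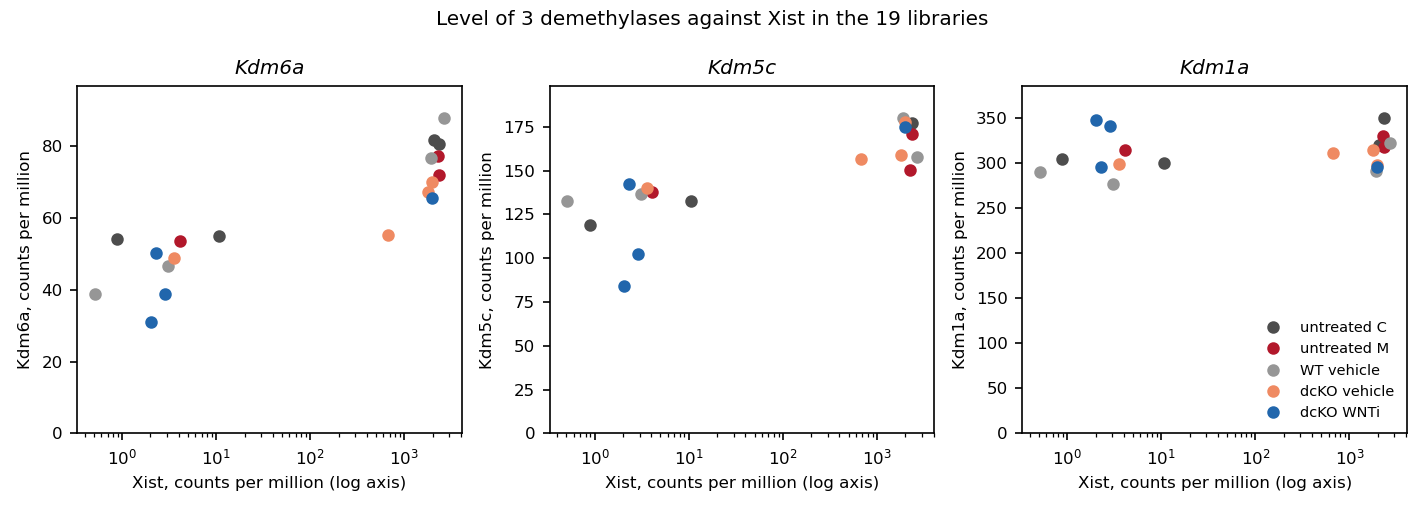
Level of Kdm6a, Kdm5c and the autosomal Kdm1a (vertical axes, CPM, from 0) against Xist (horizontal axis, CPM, log scale) in 19 libraries, coloured by group. Kdm6a lies between 65.6 and 88.0 CPM at high Xist and between 30.9 and 55.1 CPM at low Xist, dcKO vehicle 1 lies between them on the Xist axis at 673 CPM, and Kdm1a shows no such split.

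With Xist as a covariate, the change of Kdm6a in dcKO WNTi against dcKO vehicle was -0.06 instead of -0.38, and that of Kdm5c -0.16 instead of -0.33 (edgeR, adjusted p = 0.888 and 0.666). The corresponding values for the autosomal Kdm5a and Kdm5b were -0.21 and -0.15. In the other comparisons Kdm6a was -0.23 instead of -0.42 in dcKO WNTi against WT vehicle, -0.17 instead of -0.05 in dcKO vehicle against WT vehicle and -0.09 instead of -0.01 in M against C, so that the covariate made some differences smaller and others larger. The number of WNTi libraries with high Xist, 1 of 4 against 3 of 4 in dcKO vehicle with dcKO vehicle 1 included, moved with the difference in the X-linked pair. Whether it accounts for it was not tested.

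Long transcripts as a class were low in dcKO WNTi 1 and 3, the libraries with the lowest Kdm6a, Kdm6b and Kdm5c of their group. The 7 demethylases have 5179 to 16555 bases of annotated exon. Kdm6b (6954), Kdm1b (5495) and Kdm1a (5179) belong to neither of the classes compared next, at least 7000 bases and under 2000 bases. The median deviation of 3211 protein-coding genes with at least 7000 bases from the mean of the treated libraries, minus that of 999 genes with under 2000 bases, was -0.60 in dcKO WNTi 1, -0.39 in WNTi 3, -0.17 in WT vehicle 1 and -0.12 in WNTi 4 (log2). It was between 0.04 and 0.35 in the other treated libraries. In dcKO WNTi against dcKO vehicle, the long genes had a median log2 fold change of -0.12 and the short ones 0.21, while in dcKO vehicle against WT vehicle the values were -0.02 and 0.00. dcKO WNTi 1 was also the library in which Kdm6a, Kdm5a and Kdm5c lay 0.80, 0.81 and 0.76 log2 units below their means. In the same library Kdm5b, with the most exon bases of the 7, deviated by -0.29. For Kdm1b, Kdm6b and Kdm1a, which are in neither length class, the values were -0.54, -0.32 and 0.18. The markers of choroid plexus, an epithelium outside the cortex, were highest in dcKO WNTi 1 and 3. The summed level of the 7 genes was 858, 166, 493 and 12.4 CPM in dcKO WNTi 1 to 4, against 7.17 to 12 CPM in dcKO vehicle and 7.11 to 133 CPM in WT vehicle. The measures did not always go together: dcKO WNTi 2 had 166 CPM of markers and 0.19 for the length measure, and dcKO WNTi 4 and WT vehicle 1, negative for the length measure, had 12.4 and 8.18 CPM. The part of transcript length and of choroid plexus in the lower values of the demethylases was not tested. In bulk tissue, fewer cells of a type and less RNA per cell cannot be told apart.

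**Figure D4:**
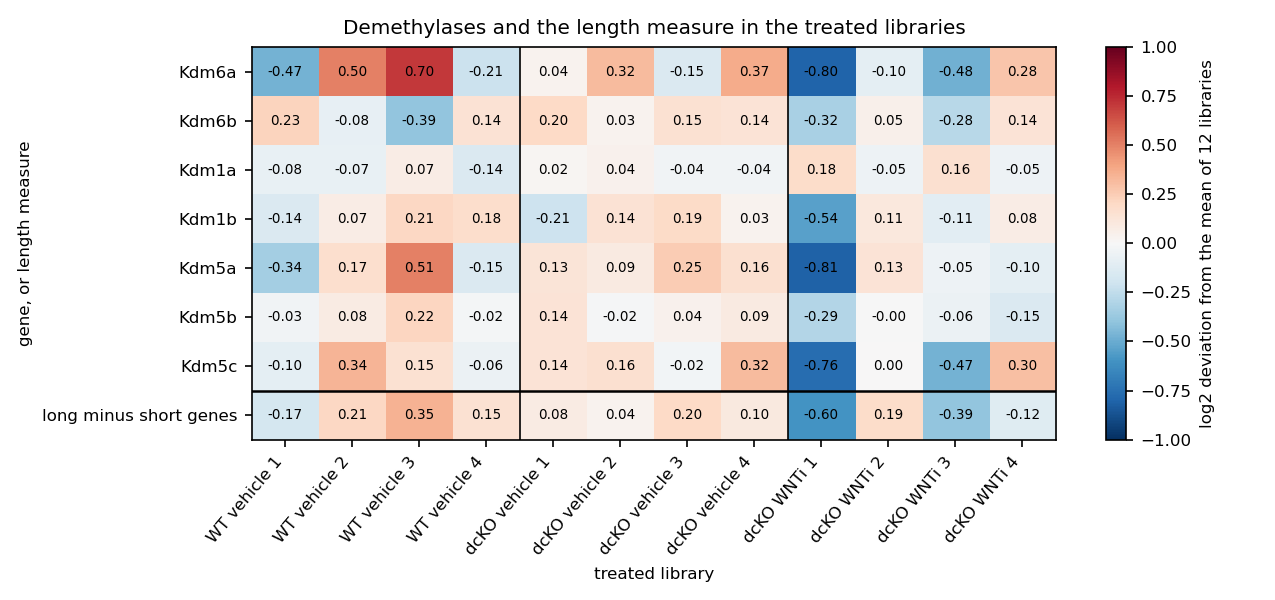
Log2 deviation of each demethylase (rows) from its mean over the 12 treated libraries (columns), with the difference between the median deviations of long and short genes in the last row. dcKO WNTi 1 is low for 6 of 7 genes and for long genes, Kdm1a is the exception at 0.18, and dcKO WNTi 2 lies near 0.

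The enzymes and partners that work with the demethylases did not pass the test either. Of 15 tested members among 16 other lysine demethylases, 0 were called in any treated comparison, and the median log2 fold change was 0.00 in dcKO vehicle against WT vehicle and -0.23 in dcKO WNTi against dcKO vehicle, beside 0.01 over all genes. Of 12 tested PRC2 subunits, the writers of H3K27me3, 0 were called, and their medians were 0.05 and 0.07. Of 13 H3K4 methyltransferases and COMPASS subunits, 0 were called, with medians of 0.02 and -0.13. Of 11 CoREST partners, 0 were called, with medians of -0.03 and -0.08. Of 3 further partners of KDM6A, 2 were tested and 0 called, with medians of 0.07 and -0.18. In M against C, 0 members of these 5 lists were called, and the medians lay between -0.04 and 0.11. Of all genes, 0.00634%, 0.00611%, 0.055% and 0.0977% were called in the 4 comparisons. At the unadjusted limit, 5 of 13 H3K4 methyltransferases and COMPASS subunits were under 0.05 in dcKO WNTi against dcKO vehicle and 5 of 13 against WT vehicle, beside 15.8% and 19.8% of genes, and 0 of 13 in M against C and in dcKO vehicle against WT vehicle. Other lysine demethylases had 3 and 4 of 15 in the WNTi comparisons, PRC2 1 and 0 of 12, CoREST partners 1 and 1 of 11, and the further KDM6A partners 1 and 1 of 2. In M against C these 4 lists had 1 of 16, 2 of 12, 2 of 11 and 1 of 3, beside 16% of genes. In dcKO vehicle against WT vehicle they had 2 of 15, 1 of 12, 0 of 11 and 0 of 2, beside 9.46%.

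The members of these lists with the lowest p are given after their values were seen. Kmt2c, a catalytic subunit of the KDM6A complex, had 240, 284, 332 and 297 CPM in WT vehicle, 279, 250, 281 and 272 CPM in dcKO vehicle and 129, 255, 173 and 195 CPM in dcKO WNTi. Its log2 fold change was -0.62 (SE 0.17, edgeR, adjusted p = 0.0984) against WT vehicle and -0.52 (SE 0.16, adjusted p = 0.197) against dcKO vehicle. The 3 lowest WNTi libraries lay below each vehicle library, and the lowest were again 1 and 3. Jarid2, which recruits PRC2, had 118, 139 and 142 CPM in M2 to M4 against 106 to 120 CPM in untreated C, and 129, 107, 134 and 136 CPM in dcKO vehicle against 99.9 to 114 CPM in WT vehicle. M2 and dcKO vehicle 2 lay within the controls and the other dcKO libraries above them, and the log2 fold change was 0.24 in both comparisons (SE 0.08 and 0.10, edgeR, adjusted p = 0.213 and 0.478).

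The genes most like each demethylase over the 12 treated libraries were named by their correlation of log2 CPM among 11683 genes. For Kdm6a they were Jpx (r = 0.95), an X-linked non-coding RNA next to Xist, Sass6 (0.93) and Ddx3x (0.92), the X-linked paralogue of Ddx3y, with r = 0.78, 0.22 and 0.74 over the 7 untreated libraries. For Kdm6b they were Kmt2b (0.98), an H3K4 methyltransferase, Pom121 (0.97) and Tnrc18 (0.97), with 0.92, 0.79 and 0.76 in the untreated libraries. For Kdm5c they were Ppfia1 (0.94), Kat6b (0.92) and Wdr48 (0.92). In the untreated libraries these had r = 0.74, 0.73 and 0.52. Kdm5a was most like Ahctf1, Klhl24 and Scaf11 (all 0.98), with r = -0.12, 0.75 and 0.82 in the untreated libraries. Kdm5b was most like Nbr1, Nup98 and Iars (0.95, 0.95 and 0.94), with 0.63, 0.60 and 0.15. Kdm1b was most like Sec24a, Gm16185 and Cldnd1 (0.97, 0.96 and 0.95), with 0.88, 0.97 and 0.82. Kdm1a was most like Tada2a, Gpn1 and Tomm7 (0.97, 0.96 and 0.94), with -0.48, 0.33 and 0.63, so that the likeness of the first had the other sign there. Among the 7 themselves, Kdm6a and Kdm5c had r = 0.88 in the treated and 0.89 in the untreated libraries, and Kdm5a and Kdm5b 0.89 and 0.58. Kdm6a and Kdm6b, which share a substrate, had r = 0.02 in both. All these points share libraries and their composition, and dcKO WNTi 1 lies at the end of the range for most of them.

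H3K27me3 peaks at the demethylase genes themselves were read from the deposited lists. The deposited lists hold broad peaks called per library with MACS2, between 6674 and 46000 in number, and 6.11% to 36.3% of protein-coding genes had a peak within 2000 bases of an annotated start. Of the 7 genes, 3 had such a peak in at least 1 of the 8 libraries, beside 40.9% of protein-coding genes, which is near the background. None of the 7 had one in more than 1 library, and Kdm6a, Kdm6b, Kdm1a and Kdm5b had none. Kdm5a had a peak at an internal start in C1 (chr6:120405439-120405836, 3.75-fold over input). Kdm1b had one in K4 (chr13:47043732-47044586, 3.85-fold) and Kdm5c a pair in K4 (chrX:152230775-152231375 and chrX:152233420-152233627, 3.19- and 3.12-fold). K4 is the library with the most peaks. Over the gene body, Kdm6b had a peak near its 3′ end, away from both annotated starts, in C1, K1 and K4 (3.51-, 4.88- and 4.28-fold, chr11:69399449-69400008 in K1), and no other member had 1 in more than 1 library. The most peaks were called in K4, C1 and K1 (46000, 28659 and 18408). After removal of duplicate tags the libraries kept from 2420911 to 28335352 tags. Peak number did not follow this depth: C1 kept 2806857 tags, and C4, with 28335352 tags, had 8354 peaks. A missing peak in a library, shallow or deep, hence does not show that the mark was absent. No test between C and K was made on so few peaks.

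The 250 bases before the annotated start are shown for Kdm6a, which followed Xist, and Kdm1a, the most abundant member per length. Both are promoters with no H3K27me3 peak within 2000 bases in any of the 8 libraries. They were read from RefSeq promoters on GRCm38.p6, 5′ to 3′ on the strand of the gene, with CG dinucleotides in capitals. Kdm6a lies on the plus strand (chrX:18162325-18162574) and Kdm1a on the minus strand (chr4:136602724-136602973).
Kdm6a: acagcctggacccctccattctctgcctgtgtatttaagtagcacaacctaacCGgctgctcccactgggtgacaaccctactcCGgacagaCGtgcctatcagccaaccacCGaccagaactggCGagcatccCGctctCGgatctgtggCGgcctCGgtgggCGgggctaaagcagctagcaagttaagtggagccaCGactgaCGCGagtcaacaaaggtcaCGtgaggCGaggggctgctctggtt
Kdm1a: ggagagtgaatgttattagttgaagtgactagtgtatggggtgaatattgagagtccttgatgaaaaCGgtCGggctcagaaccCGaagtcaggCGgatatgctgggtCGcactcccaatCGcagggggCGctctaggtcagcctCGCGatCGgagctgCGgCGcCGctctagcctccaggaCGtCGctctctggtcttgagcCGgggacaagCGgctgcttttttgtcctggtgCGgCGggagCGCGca
The Kdm6a window holds 15 CG dinucleotides and the Kdm1a window 21, against a median of 6 over 32851 promoter windows of this length. Of those windows, 27.3% and 16.3% hold at least as many. RefSeq entries matched 5 of the 7 members. Kdm1b and Kdm5b had 22 and 13 CG, and Kdm5c had 10.

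The 7 genes lie on 6 chromosomes of GRCm38 (mm10): Kdm6a (ENSMUSG00000037369) at chrX:18162575-18279936, Kdm5c (ENSMUSG00000025332) at chrX:152233020-152274535, Kdm6b (ENSMUSG00000018476) at chr11:69398508-69413675, Kdm1a (ENSMUSG00000036940) at chr4:136550540-136602723, Kdm1b (ENSMUSG00000038080) at chr13:47043499-47085279, Kdm5a (ENSMUSG00000030180) at chr6:120364124-120444574 and Kdm5b (ENSMUSG00000042207) at chr1:134560171-134635285. Reads of Kdm6a and Uty, and of Kdm5c and Kdm5d, come from related sequences. In libraries with high Xist, Uty and Kdm5d were at under 1 CPM, so that few reads of the X-linked gene were counted on the Y-linked copy there.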

How the data were processed

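RNA-seq was made from 19 libraries and H3K27me3 ChIP-seq from 8 libraries. The authors aligned single-end reads from an unstranded library kit to mm10 with STAR and counted them per gene with featureCounts, and the deposited RNA values are these raw counts. The annotation and the strand setting were not given in the sources used here, so that reads of overlapping antisense genes cannot be told apart. For ChIP-seq, the authors called broad peaks at q 0.1 in each library against 1 input per genotype with MACS2 (2.1.0.20140616 per the file headers), keeping 1 tag per position, and deposited the fold enrichment over input and the -log10 q of each peak. The deposited lists hold only what was called at that depth.

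Counts were tested with edgeR 4.0.16 (quasi-likelihood, TMM scaling, filterByExpr, robust) in R 4.3.3, in the 7 untreated libraries alone and in the 12 treated libraries together, with Benjamini-Hochberg adjusted p under 0.05 over all genes tested. The difference between the genotype effects was fitted over 15 libraries. The slope on Xist was fitted on log2 Xist CPM with the group as a term. CPM used the scaled library sizes, and levels per kilobase used the exon length of GENCODE M21, to which 36602 untreated and 48349 treated gene IDs matched. Unassigned rows of the untreated tables were 0. Both RNA tables were scaled separately, so that levels are given side by side. The scripts were tested on simulated data, with a spread that was set and not taken from these libraries. Of changes of 1.5-fold, 42% were recovered in the design of M against C and 53.5% in that of dcKO WNTi against dcKO vehicle. Of changes of 2-fold, 98% and 99% were. DESeq2 1.42.0, another scaling, no filter, Xist as a covariate, the replicate number as a block, the compared groups alone and each library left out were the alternatives, and the sets without the high-Smarcc1 dcKO libraries, the source block and the summed libraries were chosen after seeing the data. The 7 genes, the lists of partners and the marker lists were chosen with earlier results of these data known. For each member the 3 most correlated genes were named, and any other gene was named after its values were seen. Intervals cover the spread between libraries.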

Additional observations from a re-analysis of the deposited data

Results flagged for a closer look

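None of the 7 demethylases had a library that stood apart in its group by Dixon's test (4 samples a group, 36 groups of values tested, of which chance gives 5%). The test picked dcKO vehicle 2 for Smarcc1 at 242 CPM and for Smarcc2 at 692 CPM, where the gap to the nearest library was 0.95 of the range of the group for both. The demethylases in that library lay within the range of the other dcKO vehicle libraries for Kdm6a at 67.3 CPM, Kdm1b at 59.8 CPM and Kdm5c at 159 CPM, just above it for Kdm1a at 315 CPM, and just below it for Kdm6b at 241 CPM, Kdm5a at 101 CPM and Kdm5b at 310 CPM.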

How the results depend on the processing

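No demethylase passed an adjusted p of 0.05 in any of 89 alternative fits over the 5 comparisons. Many of these fits called 0 genes of all tested, among them each fit of the difference between the genotype effects. Those fits say nothing about the demethylases in particular. The most genes were called in M against C without untreated M2, 1994 of 16024 (12.4%). Of 623 values, 78 had the other sign, none larger than 0.18 (log2). In both WNTi comparisons each of the 7 genes kept its sign in each alternative fit, those without 1 library included.

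The number of genes called over the whole table moved. Without a filter on low counts it was 154 in M against C, 0 in dcKO vehicle against WT vehicle, 20 in dcKO WNTi against dcKO vehicle and 58 in dcKO WNTi against WT vehicle. DESeq2 called 559, 118, 334 and 753. With Xist as a covariate the last 3 comparisons gave 0, 0 and 1. DESeq2's size factors gave 0 in the vehicle comparison. The fit of only the 2 groups compared gave 0 in the vehicle comparison and 8 in dcKO WNTi against WT vehicle. Without dcKO vehicle 2 and dcKO WNTi 1 and 2, the WNTi comparisons gave 172 and 1241. Leaving out each library in turn gave 0 to 1994 calls in M against C (1994 without M2), 0 to 562 in the vehicle comparison (562 without dcKO vehicle 2), and 0 to 420 and 0 to 1453 in the WNTi comparisons (highest without dcKO WNTi 2). The cause was not tested.

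Same-numbered libraries within an experiment deviated with r from -0.18 to 0.40 in the treated (highest for WT vehicle 1 with dcKO WNTi 1 and, at 0.38, with dcKO vehicle 1) and from -0.31 to -0.033 in the untreated libraries. As not every pair was positive, the numbers were not taken to pair the samples. With the replicate block, 0, 5 and 189 genes were called in M against C, the vehicle comparison and dcKO WNTi against WT vehicle, and Kdm1a, Kdm1b and Kdm5c in M against C were -0.012, 0.019 and -0.073, and Kdm5b in the vehicle comparison 0.0037. The block ended no call of a demethylase, as there was none.

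Values near 0 changed sign. In M against C with Xist as a covariate, Kdm1a, Kdm1b and Kdm5c were -0.010, 0.0051 and -0.033. In the vehicle comparison Kdm5b was 0.00080 with DESeq2's size factors, 0.011 without a filter and 0.0019 with DESeq2, and Kdm5c was -0.038 with Xist as a covariate. For the difference between the genotype effects, Kdm5b was -0.0023 without a filter. Without untreated M2 and dcKO vehicle 2, that difference was 0.018 for Kdm6a, -0.0069 for Kdm6b, 0.00099 for Smarcc1 and 0.027 for Smarcc2. With same-numbered libraries as a source block it was 0.053 for Kdm6a, 0.063 for Kdm1b, 0.034 for Kdm5a, -0.0082 for Kdm5b and 0.00045 for Smarcc2.

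With 1 library left out, M against C ran from -0.12 to 0.13 for Kdm6a, -0.021 to 0.058 for Kdm1a, -0.071 to 0.023 for Kdm1b, -0.036 to 0.022 for Kdm5b and -0.080 to 0.11 for Kdm5c. The vehicle comparison ran from -0.22 to 0.16 for Kdm6a, -0.10 to 0.040 for Kdm1b, -0.038 to 0.25 for Kdm5a and -0.031 to 0.055 for Kdm5b. The difference between the genotype effects ran from -0.21 to 0.18 for Kdm6a, -0.068 to 0.11 for Kdm6b, -0.0024 to 0.10 for Kdm1a, -0.090 to 0.062 for Kdm1b, -0.13 to 0.17 for Kdm5a, -0.026 to 0.072 for Kdm5b, -0.041 to 0.14 for Kdm5c, -0.37 to 0.26 for Smarcc1 and -0.27 to 0.23 for Smarcc2.

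The slope of Kdm6a on Xist was 0.066 with same-numbered libraries summed, 0.076 in the treated and 0.056 in the untreated libraries, each without an adjusted p under 0.05, and that of Kdm5c was 0.044 with one in the 15 libraries that leave out the high-Smarcc1 dcKO libraries. Within 5000 bases of a start, 5 of the 7 genes had an H3K27me3 peak in at least 1 library, beside 50.7% of protein-coding genes.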

Other observations

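Among the marker lists, Otx2, a transcription factor of choroid plexus, was the single marker gene called in any comparison. It had 1.65 to 2.36 CPM in WT vehicle, 1.43 to 3.68 CPM in dcKO vehicle and 5.17 to 7.89 CPM in dcKO WNTi, with a log2 fold change of 1.64 in dcKO WNTi against WT vehicle (edgeR, adjusted p = 0.0464). The summed choroid plexus markers, Otx2 among them, ran from 12.4 to 858 CPM in the same dcKO WNTi libraries, a far wider range than that of Otx2. The call does not hold throughout: no gene at all was called in this comparison without WT vehicle 2 or 4, dcKO vehicle 1 or 4, or dcKO WNTi 3 or 4, each left out in turn.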
